A study of Mus musculus with 2 samples.

Results

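Regulatory T cells (Tregs) of mouse melanomas were described by 7 genes that mark their identity, Foxp3, Il2ra, Ikzf2, Ikzf4, Nrp1, Izumo1r and Gpr83, out of 27998 genes in the count matrices. The 7 genes were chosen by name and all 7 were found under these symbols. They were measured by single-cell RNA sequencing of YUMMER1.7 tumors, from a BRAF-mutant mouse melanoma line, grown under the skin of male C57BL/6 mice for 11 days. The WT host mice carried intact Siah2, which encodes a ubiquitin ligase, the Siah2-/- hosts lacked it in every cell, and all hosts were 8 weeks old and bore the same tumor line without further treatment. Live CD45+ cells were sorted and a smaller number of CD45- cells was mixed back, so shares of all cells reflect that mixture. Each genotype gave 1 library. Every interval below is therefore a 95% interval for counting error only, no difference between the libraries was tested against the spread between mice, and genotype, tumor and library cannot be told apart.

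Foxp3 encodes the forkhead transcription factor that specifies the Treg lineage. Il2ra encodes CD25, the high-affinity chain of the interleukin 2 receptor, on which Tregs depend because they make little of this cytokine themselves. Ikzf2 and Ikzf4 encode Helios and Eos, transcription factors of the Ikaros family, and Nrp1, Izumo1r and Gpr83 encode the semaphorin receptor neuropilin 1, folate receptor 4 and a G protein-coupled receptor, all of them surface proteins used to recognize mouse Tregs.

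In GRCm38, Foxp3 lies at chrX:7573644-7595245 on the plus strand and Il2ra at chr2:11642807-11693193 on the plus strand. Ikzf2 lies at chr1:69531214-69687245 and Ikzf4 at chr10:128630843-128645991, both on the minus strand. Nrp1 lies at chr8:128358604-128503363 on the plus strand. Gpr83, at chr9:14860210-14870789 on the plus strand, and Izumo1r, at chr9:14885814-14903949 on the minus strand, are neighbours whose ends lie 15024 bases apart with 0 annotated genes between them. Foxp3 shares its span with 4 other annotated genes, among them Ppp1r3f and Ccdc22 on the opposite strand, and Ikzf2 with 3. The sources used here do not say whether counting used strand, so reads from the shared stretches cannot be told apart.

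RefSeq gave promoter sequence, taken as 250 bases before and 50 bases from the transcript start in GRCm38.p6, for 5 of the 7 genes. The promoters of Foxp3 and of the neighbours Izumo1r and Gpr83 are shown because Foxp3 defines the class and, of the neighbours, Izumo1r was counted in most Foxp3-positive barcodes and Gpr83 in hardly any. Capitals mark matches to 6 short motifs searched on both strands, with positions counted from the start. The motifs searched were TGTTTAC for forkhead factors, TTCNNNGAA for STAT factors, TGTGGT for Runx factors, TGGGAA for Ikaros factors, GGAAAA for NFAT factors and TATAAA for the TATA box.
Foxp3, chrX:7579426-7579725, plus strand: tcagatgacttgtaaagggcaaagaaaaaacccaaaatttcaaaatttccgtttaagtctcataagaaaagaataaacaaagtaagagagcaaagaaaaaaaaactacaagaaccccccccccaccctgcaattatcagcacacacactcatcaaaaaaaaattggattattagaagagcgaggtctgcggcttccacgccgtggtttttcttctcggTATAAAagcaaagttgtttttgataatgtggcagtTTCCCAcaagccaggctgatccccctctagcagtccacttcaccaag
Foxp3, chrX:7580233-7580532, plus strand: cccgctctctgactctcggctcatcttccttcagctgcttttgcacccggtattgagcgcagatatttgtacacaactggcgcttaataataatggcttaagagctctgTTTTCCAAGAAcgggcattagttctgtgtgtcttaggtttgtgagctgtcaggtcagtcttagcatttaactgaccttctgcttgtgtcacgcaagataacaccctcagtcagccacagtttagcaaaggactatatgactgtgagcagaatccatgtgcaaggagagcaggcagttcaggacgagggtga
Izumo1r, chr9:14903718-14904017, minus strand: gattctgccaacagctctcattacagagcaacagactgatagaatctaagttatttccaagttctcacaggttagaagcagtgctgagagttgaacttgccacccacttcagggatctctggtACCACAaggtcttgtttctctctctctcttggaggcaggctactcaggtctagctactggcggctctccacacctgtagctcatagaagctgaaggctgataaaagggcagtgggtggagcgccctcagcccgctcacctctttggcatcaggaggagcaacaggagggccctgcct
Gpr83, chr9:14859960-14860259, plus strand: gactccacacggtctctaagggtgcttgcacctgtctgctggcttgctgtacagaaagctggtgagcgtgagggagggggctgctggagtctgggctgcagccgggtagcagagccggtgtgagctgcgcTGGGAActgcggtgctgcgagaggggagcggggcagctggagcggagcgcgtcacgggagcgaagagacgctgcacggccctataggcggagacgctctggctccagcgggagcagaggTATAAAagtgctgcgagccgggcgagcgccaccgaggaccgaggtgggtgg

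The upstream Foxp3 promoter held a TATA match at -32 and an Ikaros match at 4. The downstream Foxp3 promoter held an NFAT match at -141 that overlapped a STAT match at -139. Izumo1r held a Runx match at -127, and Gpr83 an Ikaros match at -120 and a TATA match at -1. None of the 6 promoters of these genes held the forkhead motif. Among all 32851 mouse promoters in the table, 3.65% held the forkhead motif, 8.30% STAT, 13.6% TATA, 16.8% Runx, 23.4% NFAT and 25.6% Ikaros.

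Barcodes were kept with at least 2000 unique molecular identifiers (UMIs) and at most 10% mitochondrial UMIs, which left 8727 barcodes in WT and 8425 in Siah2-/- with medians of 7084 and 6637 UMIs. The authors' own table kept 4524 and 5576 of these. T cells were gated by at least 2 UMIs over Cd3d, Cd3e and Cd3g and no UMI of the macrophage gene Csf1r, giving 2594 and 3202 barcodes with medians of 4610 and 5239 UMIs. Levels are UMIs per 1000000 UMIs of the class (CPM), and free RNA was read from barcodes with 1 to 100 UMIs. Free RNA levels are those of such RNA alone, which was estimated at 5.40% of the UMIs of T-gated barcodes in WT and 8.31% in Siah2-/-. The libraries shared 90 kept barcodes, 1.03% of WT and 1.07% of Siah2-/-. Siah2 itself was counted at 10.2 CPM in WT and 8.28 CPM in Siah2-/- over all kept barcodes, and at 6.06 CPM (3.13 to 10.6) and 9.05 CPM (4.95 to 15.2) in Foxp3-positive T cells, on 12 and 14 UMIs. The sources used here do not say which part was deleted, so this 3′ tag does not check the labels.

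Foxp3 was counted in 399 of 2594 T-gated barcodes in WT, 15.4% (14.0 to 16.8), and in 249 of 3202 in Siah2-/-, 7.78% (6.87 to 8.76). The log2 ratio of Siah2-/- to WT was -0.98 (-1.22 to -0.75). With every barcode thinned to 2000 UMIs the shares were 10.7% and 4.97% and the log2 ratio was -1.11 (-1.40 to -0.82). The share of Foxp3-positive T cells was thus lower in the Siah2-/- library at equal depth too. Macrophage-gated barcodes, which should lack Foxp3, held it in 0.900% and 0.907% at medians of 7860.5 and 7406.5 UMIs, but that gate leaves out every barcode with a CD3 UMI and so lowers what carried-over T cell RNA can add. With any number of CD3 UMIs allowed, 3.49% (2.92 to 4.14) of 3635 and 2.97% (2.42 to 3.61) of 3265 Csf1r barcodes without Ncr1 or Flt3 held Foxp3, at medians of 8587 and 8721 UMIs. The shares over all T cells lay above these in both libraries. Some of these Csf1r barcodes have at least 2 CD3 UMIs and can hold a T cell, so their share is not one of carried-over RNA alone. Among all barcodes with at least 2 CD3 UMIs and Csf1r, 107 of 576 in WT and 85 of 1012 in Siah2-/- held Foxp3.

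The libraries differed in Foxp3-positive share among cells that held Cd4. Of barcodes with a Cd4 UMI and none of Cd8a or Cd8b1, 39.1% (34.2 to 44.2) of 386 held Foxp3 in WT and 14.3% (11.8 to 17.2) of 670 in Siah2-/-, a log2 ratio of -1.45 (-1.83 to -1.07). Thinned, these shares were 28.8% and 9.70%. CD4-gated barcodes without Foxp3 numbered 235 in WT and 574 in Siah2-/-, 2.69% and 6.81% of kept barcodes. Foxp3-positive T cells made up 4.57% and 2.96% of kept barcodes, a log2 ratio of -0.63 (-0.86 to -0.40). Barcodes with both Cd4 and Cd8 gave 45.0% of 60 and 16.0% of 181, a log2 ratio of -1.49 (-2.30 to -0.68). Barcodes with neither gene gave 18.1% and 8.02%, a log2 ratio of -1.18 (-1.57 to -0.79). With Cd8 alone, 4.46% and 3.12% held Foxp3, and the ratio of -0.52 (-1.14 to 0.09) was within counting error. Their intervals, 3.38 to 5.77 and 2.24 to 4.20, overlap those of the Csf1r barcodes in both libraries. By share alone, here and below, CD8-gated cells are thus not set apart from those barcodes, some of which can hold a T cell. CD8-gated barcodes with Foxp3 had more Il2ra than those without, by log2 ratios of 3.67 (3.32 to 4.02) and 3.35 (3.03 to 3.67). Nrp1 was within counting error, and what these barcodes hold was not tested. A gate that uses none of the 7 genes, T cells without Cd8 that hold at least 2 of Ctla4, Tnfrsf4, Tnfrsf18 and Ccr8, held Foxp3 in 46.7% of 673 barcodes in WT and 19.9% of 885 in Siah2-/-.

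**Figure D1:**
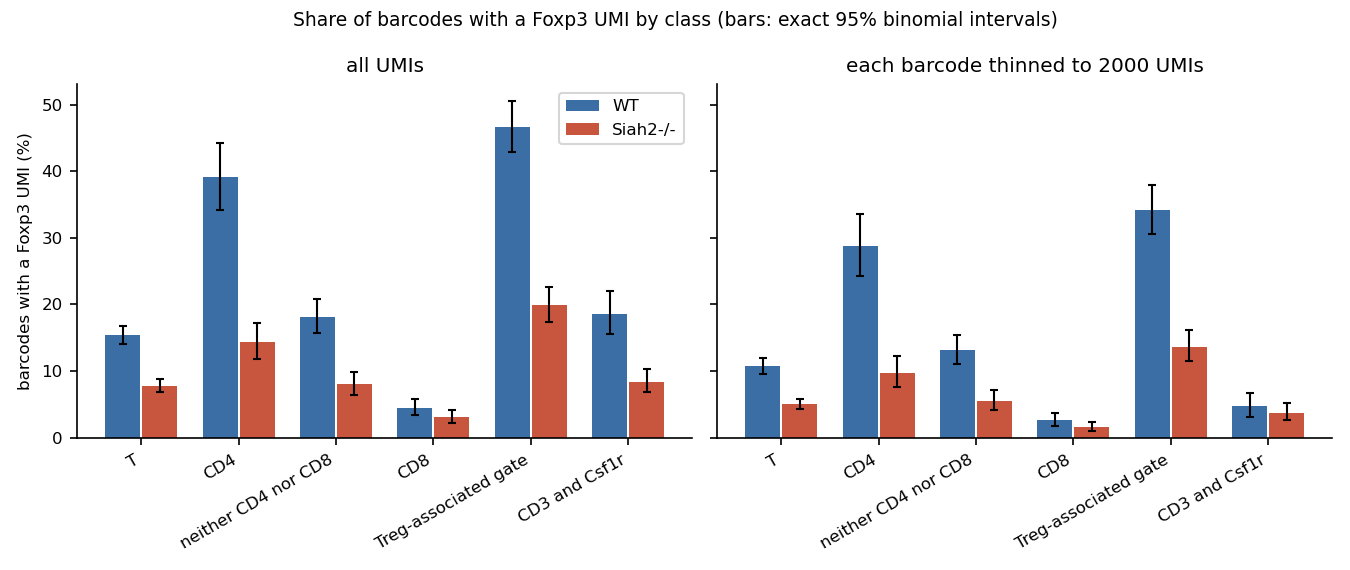
Bars give the percent of barcodes with at least 1 Foxp3 UMI in each class, for WT and Siah2-/-, with all UMIs on the left and after thinning each barcode to 2000 UMIs on the right. Error bars are exact 95% binomial intervals. In CD4-gated barcodes the shares were 39.1% and 14.3% with all UMIs and 28.8% and 9.70% thinned, and in the CD8 gate the intervals overlap.

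Over all T-gated barcodes the Foxp3-positive share was highest in shallow ones. From 2000 to under 4000 UMIs, 24.0% of 1032 T-gated barcodes in WT and 12.8% of 854 in Siah2-/- held Foxp3. From 4000 to under 8000 UMIs the shares were 9.29% and 5.98%, and from 8000 UMIs 10.4% and 5.92%. In the CD4 gate the order was another, with 41.5% of 248, 27.7% of 112 and 65.4% of 26 barcodes in WT and 16.9% of 242, 11.7% of 368 and 20.0% of 60 in Siah2-/-. WT was higher in each of the 3 bands of both gates, but over all T cells with only barcodes of at least 4000 UMIs the log2 ratio shrank to -0.70. The authors kept 78 of the 399 WT and 99 of the 249 Siah2-/- Foxp3-positive barcodes, and among the T-gated barcodes they kept the shares were 10.7% and 5.85%.

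Within a Foxp3-positive cell, Foxp3 counts were low. In WT 161 barcodes held 1 UMI, 112 held 2 and 126 held 3 or more, with 11 at most. In Siah2-/- the numbers were 88, 60 and 101, with 19 at most. Its level over Foxp3-positive T cells, which the gate itself fixes to be above 0, was 435 CPM in WT and 421 CPM in Siah2-/-, against 22.3 and 14.4 CPM in free RNA. Of the Foxp3-positive barcodes 151 in WT and 96 in Siah2-/- were CD4-gated, 55 and 41 CD8-gated, 27 and 29 held both and 166 and 83 held neither.

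Il2ra, the interleukin 2 receptor chain, stood at 382 CPM (355 to 410) in Foxp3-positive T cells of WT and 373 CPM (343 to 405) of Siah2-/-. CD4-gated cells without Foxp3 had 99.9 and 60.6 CPM, and CD8-gated cells without it 24.7 and 29.6 CPM. Mature dendritic cells, gated by Ccr7 and Fscn1, had 31.7 and 42.6 CPM, with Il2ra in 28.4% and 27.9% of their 95 and 43 barcodes. The intervals of these dendritic cells overlapped those of the CD8-gated cells without Foxp3 in both libraries. All other gates without CD3 genes were at 7.23 CPM or less. Within the CD4 gate, Foxp3-positive cells exceeded negative ones by a log2 ratio of 2.08 (1.75 to 2.42) in WT and 2.92 (2.63 to 3.21) in Siah2-/-.

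Ikzf2, encoding Helios, had the highest counts of the 7 genes in Foxp3-positive T cells, 2011 UMIs in WT and 1334 in Siah2-/-, or 1015 and 862 CPM. It was found in 92.7% and 87.1% of these barcodes. It was also the gene least restricted to them within T cells apart from Nrp1. Cells with neither Cd4 nor Cd8 and no Foxp3 had 319 and 353 CPM and held it in 64.3% and 59.6% of 750 and 952 barcodes, at medians of 3899 and 4497.5 UMIs. CD8-gated cells without Foxp3 had 127 and 151 CPM, NK cells 23.5 and 28.7 CPM and macrophages 5.08 and 4.46 CPM. The Foxp3-positive cells carried 39.6% of all T cell Ikzf2 UMIs in WT and 24.2% in Siah2-/-, while the Foxp3-negative cells with neither Cd4 nor Cd8 carried 30.5% and 37.5%.

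The Ikzf2-positive, Foxp3-negative cells with neither coreceptor, 482 in WT and 567 in Siah2-/-, were looked at further after these values were seen. They are set beside the Ikzf2-negative cells of the same gate. Klrb1c, a receptor of NK and innate-like T cells, was counted in 45.4% and 52.6% of them and in 44.4% and 43.4% of the Ikzf2-negative cells. Fcer1g, an adaptor of activating receptors, was counted in 78.8% and 87.7% against 66.8% and 78.4%, and Xcl1, a chemokine of NK and cytotoxic T cells, in 64.9% and 65.6% against 50.4% and 47.0%. Both were found in more barcodes with Ikzf2, but the level of Fcer1g was not higher there, at 1386 and 1557 CPM against 1463 and 1584 CPM. Tyrobp, another adaptor of activating receptors, was counted in 54.4% and 69.1% against 54.1% and 69.9%, at 818 and 990 CPM against 1384 and 1419 CPM. Ncr1, an activating receptor of NK cells, ran the other way, at 20.7% and 23.5% against 35.1% and 32.2%, as did Cd163l1, in 4.98% and 10.2% against 12.7% and 16.6%. Cd5, a T cell surface protein, was counted in 17.2% and 13.4% against 12.3% and 15.1%. In the Foxp3-positive CD4-gated cells Cd5 was found in 72.8% and 79.2%, Klrb1c in 2.65% and 8.33% and Xcl1 in 1.99% and 6.25%. Cd163l1 was found there in 0.662% and 1.04%, and Ncr1 in 0 of 151 barcodes in WT, which allows a share of up to 1.99%, and 6.25% in Siah2-/-. The adaptors were found in many of these cells too, Fcer1g in 37.1% and 57.3% and Tyrobp in 27.8% and 47.9%.

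Ikzf4, encoding Eos, was sparse, with 112 UMIs in Foxp3-positive T cells of WT and 69 of Siah2-/-, 56.5 CPM (46.5 to 68.0) and 44.6 CPM (34.7 to 56.4). It was counted in 22.8% and 20.9% of these barcodes. CD4-gated Foxp3-negative cells had 24.5 CPM (15.8 to 36.1) in WT and 6.66 CPM in Siah2-/-, and CD8-gated negative cells 4.09 and 4.51 CPM. Among the gates without CD3 genes its level was highest in mature dendritic cells, at 19.8 and 12.8 CPM on 25 and 6 UMIs, while macrophages had 0.194 and 0.142 CPM. The mature dendritic cells and the CD4-gated Foxp3-negative cells of the same library had overlapping intervals.

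Izumo1r, encoding folate receptor 4, stood at 432 CPM (404 to 462) in Foxp3-positive T cells of WT and 412 CPM (380 to 445) of Siah2-/-, in 69.7% and 68.3% of barcodes. CD4-gated Foxp3-positive cells had 548 CPM in both libraries, and CD4-gated negative cells 164 and 75.6 CPM. CD8-gated negative cells had 14.6 and 13.1 CPM. Macrophages had 0.737 and 0.991 CPM and NK cells 1.21 and 1.55 CPM, against 48.1 and 36.1 CPM in free RNA. Foxp3-positive cells carried 61.1% of T cell Izumo1r UMIs in WT and 52.6% in Siah2-/-.

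Nrp1, the semaphorin receptor, ran against the other genes. Foxp3-positive T cells had 17.2 CPM (11.9 to 24.0) in WT and 23.9 CPM (16.8 to 33.0) in Siah2-/- and held it in 7.77% and 9.64% of barcodes. CD4-gated Foxp3-negative cells had 80.3 and 79.9 CPM, in 23.4% and 27.5% of barcodes at medians of 3656 and 4625 UMIs. Free RNA alone had 34.4 and 28.0 CPM. Nrp1 was highest in fibroblasts, at 121 and 109 CPM, and in WT macrophages stood at 78.7 CPM, with an interval that overlapped that of the CD4-gated negative T cells. The Foxp3-positive cells carried 5.22% and 4.08% of T cell Nrp1 UMIs.

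Gpr83 was almost not counted, with 13 UMIs in all kept WT barcodes and 8 in Siah2-/-. Of 7 Gpr83 UMIs in WT T cells 6 lay in Foxp3-positive barcodes, 85.7% (42.1 to 99.6) where these made up 15.4% of T cells, and in Siah2-/- 1 of 3 did, 33.3% (0.840 to 90.6) against 7.78%. Its neighbour Izumo1r had 1794 and 1550 UMIs in the same barcodes. The WT share was thus above that of the barcodes beyond counting error, on 7 UMIs, and a difference between the libraries was not detectable at this depth.

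**Figure D2:**
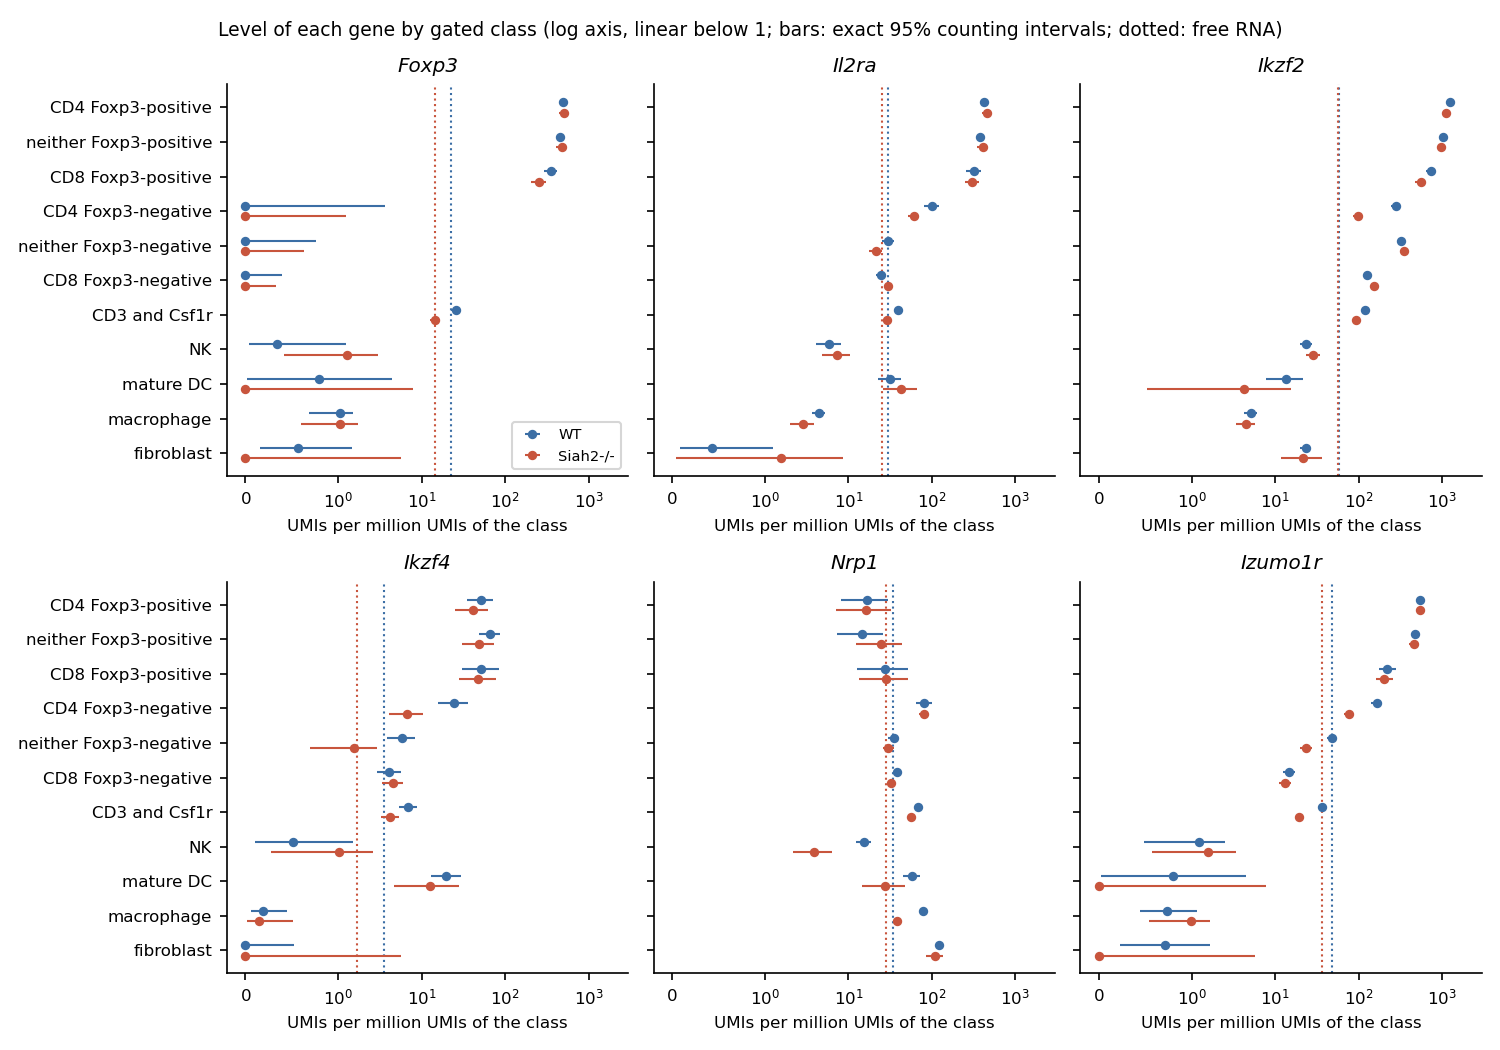
Points give the level of 6 genes in 11 gated classes as CPM of the class, on a log axis that is linear below 1, with WT and Siah2-/- in separate colours, exact 95% counting intervals and dotted lines for free RNA. Il2ra, Ikzf2, Ikzf4 and Izumo1r were highest in the Foxp3-positive classes at the top, and Nrp1 was highest in fibroblasts, at 121 and 109 CPM.

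Within the CD4 gate, Foxp3-positive cells were next compared with Foxp3-negative cells of the same library, 151 against 235 in WT and 96 against 574 in Siah2-/-. Genes more than 2-fold higher in the positive cells made up 4.96% of 6557 genes with at least 20 UMIs in WT and 6.11% of 8297 in Siah2-/-, and the same 4 genes, Il2ra, Ikzf2, Ikzf4 and Izumo1r, were among them in both. Ikzf2 had log2 ratios of 2.15 (1.96 to 2.35) in WT and 3.52 (3.31 to 3.73) in Siah2-/-, ranking 22 and 9 from the top. Il2ra ranked 26 and 19. Izumo1r, with 1.74 (1.47 to 2.01) and 2.86 (2.60 to 3.12), ranked 59 and 21. Ikzf4, with 1.06 (0.27 to 1.87) and 2.62 (1.65 to 3.59), ranked 284 and 25.

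Nrp1 was lower in the Foxp3-positive CD4-gated cells by log2 ratios of -2.28 (-3.34 to -1.37) in WT, 11 UMIs against 82, and -2.29 (-3.52 to -1.29) in Siah2-/-, 8 UMIs against 240. The intervals of the 4 higher genes also lay above 0 in the CD8 gate and in cells with neither coreceptor, and cells with both were not compared. In cells with neither Cd4 nor Cd8, Izumo1r had log2 ratios of 3.31 and 4.28 and Ikzf2 1.70 and 1.44, and in CD8-gated cells Izumo1r had 3.92 and 3.96 and Ikzf2 2.54 and 1.88. For Nrp1, the ratio in CD8-gated cells was within counting error in both libraries, and in cells with neither coreceptor it was -1.28 (-2.31 to -0.40) in WT and -0.28 (-1.31 to 0.59) in Siah2-/-.

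**Figure D3:**
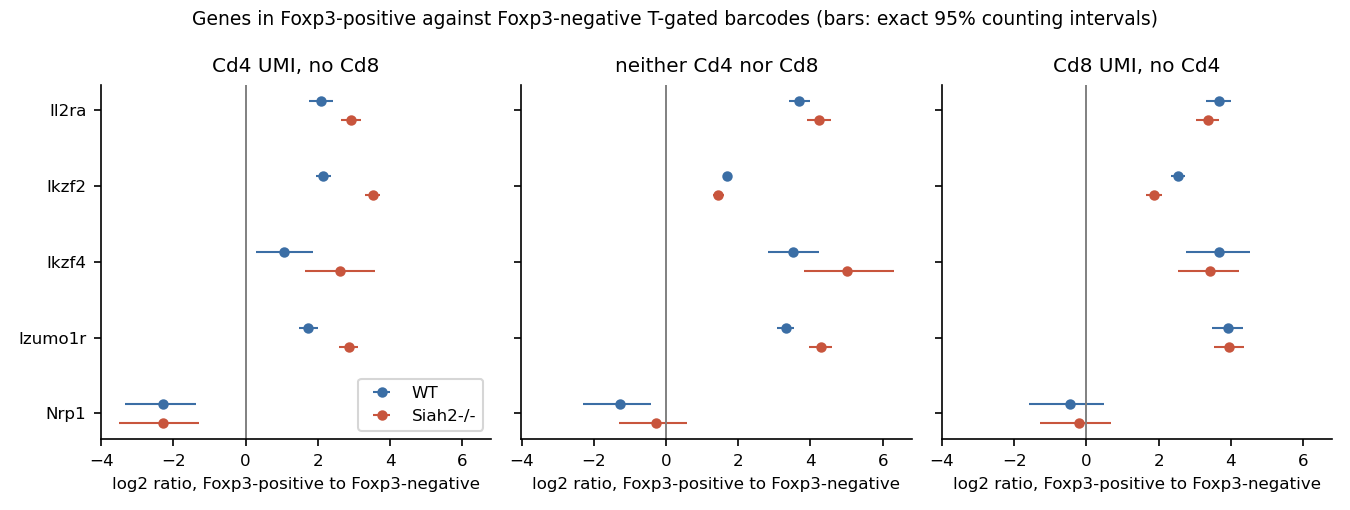
Points give the log2 ratio of levels in Foxp3-positive to Foxp3-negative barcodes for 5 genes in 3 T cell gates, WT and Siah2-/- in separate colours, with exact 95% counting intervals. Il2ra, Ikzf2, Ikzf4 and Izumo1r lie above 0 in the 3 gates, and Nrp1 lies at -2.28 and -2.29 in the CD4 gate.

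The genes were then read together in single barcodes. At least 2 of the 6 genes other than Foxp3 were counted in 89.2% (85.8 to 92.1) of Foxp3-positive T barcodes in WT and 85.5% (80.6 to 89.7) in Siah2-/-, against 36.6% and 24.6% of CD4-gated Foxp3-negative barcodes. Thinned to 2000 UMIs these shares were 71.4% and 69.1% against 23.8% and 10.6%. Il2ra, Ikzf2 and Izumo1r were all present in 46.4% and 47.8% of Foxp3-positive barcodes and in 10.6% (7.00 to 15.3) of WT and 2.09% (1.08 to 3.62) of Siah2-/- CD4-gated barcodes without Foxp3. Foxp3-negative barcodes with these 3 genes were more frequent in the WT library, and so they were after thinning, at 6.81% and 1.22%. In Siah2-/- Foxp3-positive cells, thinned, Ikzf2 was found in 84.4% (76.9 to 90.2) of barcodes with Il2ra and 63.6% (54.4 to 72.2) of those without. In WT the shares were 84.4% and 82.0%.

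The libraries were then compared inside Foxp3-positive T cells. Of 8492 genes with at least 20 UMIs there, 6.49% were past 2-fold in either direction, and none of the 6 genes that reached 20 UMIs was, a count too small to set them apart from all genes. By counting error 17.3% of all genes differed, and 1 of the 6. The log2 ratio of Siah2-/- to WT was -0.24 (-0.34 to -0.13) for Ikzf2, the gene beyond counting error. It was -0.03 (-0.19 to 0.12) for Il2ra, -0.07 (-0.22 to 0.08) for Izumo1r, -0.34 (-0.80 to 0.10) for Ikzf4 and 0.48 (-0.23 to 1.19) for Nrp1, whose interval reaches past 2-fold. The Foxp3 level within the class, which the gate conditions on, gave -0.05 (-0.20 to 0.10).

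The lower Ikzf2 level was not seen in every cut of these cells. In CD4-gated Foxp3-positive cells its ratio was -0.14 (-0.30 to 0.02) and in those with neither coreceptor -0.11 (-0.28 to 0.06). In CD8-gated ones, from a gate whose Foxp3 share overlapped that of the Csf1r barcodes, it was -0.42 (-0.70 to -0.14), beyond counting error. Over all Foxp3-positive T cells it was -0.05 among barcodes with at least 4000 UMIs, -0.07 without barcodes holding Ncr1 or Klrb1c, 0.02 with at least 2 Foxp3 UMIs and 0.09 among cells the authors kept, these 4 within counting error. In the Siah2-/- library Foxp3-positive cells with at least 2 Foxp3 UMIs had more Ikzf2 than those with 1, by a log2 ratio of 0.86 (0.68 to 1.04), and more Il2ra, by 0.82 (0.55 to 1.10). The WT values were 0.06 (-0.08 to 0.19) and -0.03 (-0.24 to 0.19).

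Over all Foxp3-negative T cells, Ikzf2 gave -0.02 (-0.09 to 0.04), Il2ra 0.03 (-0.14 to 0.20) and Nrp1 0.02 (-0.13 to 0.17), while Ikzf4, at -0.51 (-0.94 to -0.07), and Izumo1r, at -0.40 (-0.57 to -0.23), were lower in Siah2-/-. The gates within these cells differed from each other. In CD4-gated Foxp3-negative cells Ikzf2 was lower in Siah2-/- by a log2 ratio of -1.51 (-1.75 to -1.26), at 97.2 CPM against 276 CPM. Izumo1r gave -1.12, Il2ra -0.72 and Ikzf4 -1.88, while Nrp1, at 79.9 and 80.3 CPM, gave -0.01. Markers of other cells differed here too. The 5 macrophage markers summed to 259 CPM in WT and 633 CPM in Siah2-/-, with 4 of the 5 counted and Csf1r at 0 by the gate. The 3 neutrophil markers summed to 0.979 CPM in WT, with S100a8 and Retnlg at 0, and 24.0 CPM in Siah2-/-, with all 3 counted, and the 5 dendritic cell markers to 115 and 57.9 CPM. A barcode of this class may also hold a cell whose Foxp3 was not sampled, at medians of 3656 UMIs in WT and 4625 in Siah2-/-. Barcodes with all of Il2ra, Ikzf2 and Izumo1r made up 10.6% of it in WT and 2.09% in Siah2-/-. The part of such barcodes and of the markers in these ratios was not tested. In CD8-gated Foxp3-negative cells Ikzf2 was higher in Siah2-/- by 0.25 (0.14 to 0.36) and Il2ra by 0.26 (0.01 to 0.51). The Treg-associated gate does not use Foxp3 and held 314 Foxp3-positive barcodes of 673 in WT and 176 of 885 in Siah2-/-, a share that moves with its ratios and whose part in them was not tested. There Siah2-/- was lower for Foxp3 (-1.20), Il2ra (-0.91), Ikzf2 (-1.15), Ikzf4 (-1.63) and Izumo1r (-1.10) and higher for Nrp1 (0.56).

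For Nrp1 the ratio was above 0 in a pair of T cell gates and near the edge of counting error in the CD8 gate. The log2 ratio of Siah2-/- to WT was 0.83 (0.07 to 1.66) in cells with both Cd4 and Cd8 and 0.56 (0.25 to 0.88) in the Treg-associated gate, but -0.22 (-0.43 to -0.0017) in CD8-gated Foxp3-negative cells. Over the whole CD8 gate it was -0.21 (-0.42 to 0.0030), within counting error. Macrophages had 78.7 CPM in WT and 38.3 CPM in Siah2-/-, a log2 ratio of -1.04 (-1.18 to -0.90), and held it in 36.1% of 2668 and 20.6% of 1654 barcodes. NK cells had 15.2 and 3.88 CPM, a ratio of -1.97. Mature dendritic cells had 57.1 and 27.7 CPM. Markers of fibroblasts, in which Nrp1 was highest, were lower in Siah2-/- in the same classes. The 4 markers, all counted in each class, summed to 105 and 37.2 CPM in macrophages, 85.1 and 18.3 CPM in NK cells and 718 and 430 CPM in mature dendritic cells. The 3 tumor cell markers summed to 45.0 and 22.8 CPM, 33.0 and 6.20 CPM and 189 and 25.6 CPM, with Pmel at 0 in the Siah2-/- NK and mature dendritic cells. Their part in the Nrp1 ratios was not tested. Fibroblasts, at 299 and 25 barcodes, gave -0.16 (-0.53 to 0.20).

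**Figure D4:**
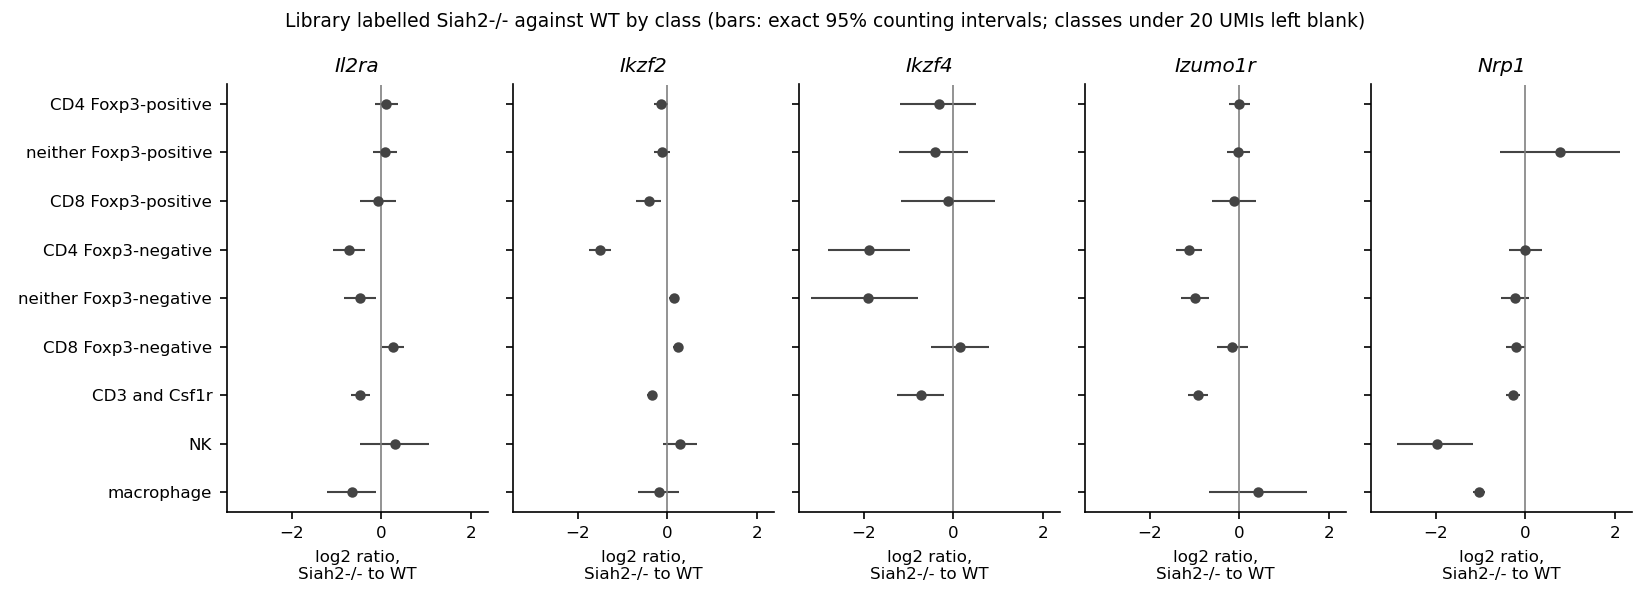
Points give the log2 ratio of the Siah2-/- library to the WT library for 5 genes in 9 classes, with exact 95% counting intervals, and classes with fewer than 20 UMIs over both libraries are left blank. Il2ra and Izumo1r lie near 0 in Foxp3-positive classes, Ikzf2 reaches -1.51 in CD4-gated Foxp3-negative cells and Nrp1 -1.04 in macrophages.

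Among Foxp3-positive T cells the genes varied with the depth of the barcode. From barcodes of 2000 to under 4000 UMIs to those of at least 8000 UMIs, Izumo1r went from 750 to 190 CPM in WT and from 836 to 145 CPM in Siah2-/-. Ikzf2 went from 1480 to 571 and from 1340 to 431 CPM, and Il2ra from 478 to 255 and from 544 to 234 CPM. All 3 were lower in the deep barcodes of both libraries. Foxp3, which must be counted at least once in each of them, went from 679 to 195 and from 740 to 192 CPM.

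Barcodes with a UMI of the proliferation genes Mki67 or Top2a made up 22.6% of Foxp3-positive T cells in WT, 90 barcodes, and 21.3% in Siah2-/-, 53 barcodes, and were deeper, with medians of 6826.5 and 6561 UMIs against 3184 and 4094. Thinned to 2000 UMIs the shares were 13.0% (9.89 to 16.7) and 11.6% (7.94 to 16.3). The summed level of both genes was 212 CPM (193 to 234) in WT and 157 CPM (138 to 178) in Siah2-/-, and in CD4-gated Foxp3-positive cells 186 CPM (155 to 222) and 104 CPM (77.6 to 137). Izumo1r was lower in them by log2 ratios of -1.36 (-1.62 to -1.12) and -1.39 (-1.70 to -1.09), Ikzf2 by -0.44 and -0.81 and Il2ra by -0.38 and -0.74. How far depth accounts for this was not tested. Barcodes with Ccr8, a chemokine receptor of tumor Tregs, had less Izumo1r in WT, -0.97 (-1.34 to -0.62), and more in Siah2-/-, 0.38 (0.11 to 0.63). There were 43 in WT and 48 in Siah2-/-, with medians of 4926 and 5129.5 UMIs, against 3383 and 4251 without Ccr8. The part of depth in these Ccr8 ratios was not tested.

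**Figure D5:**
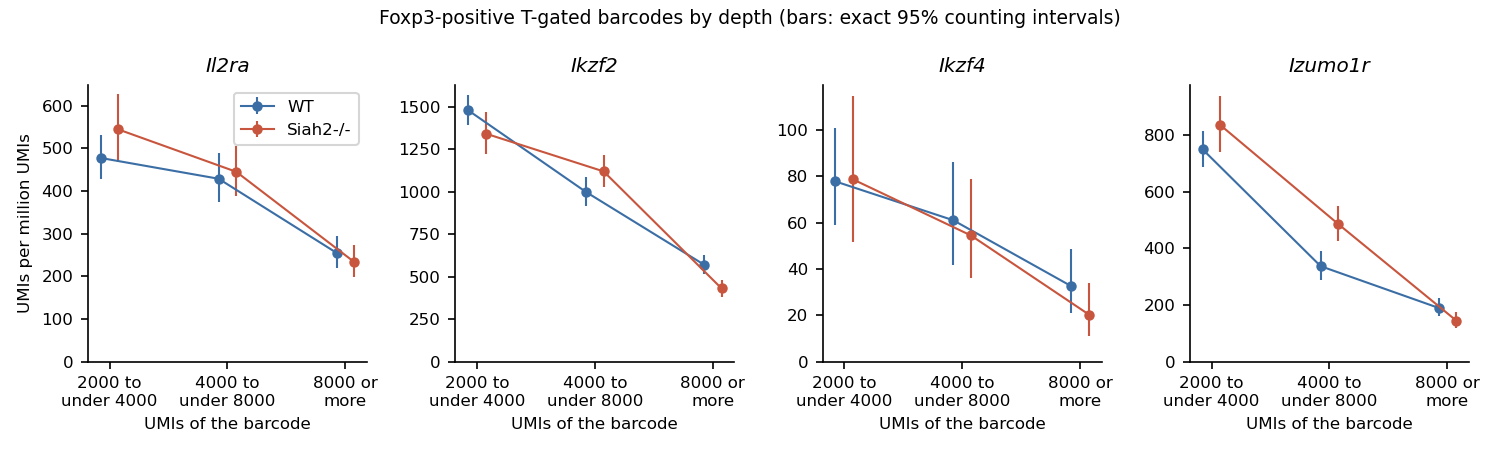
Lines join the level of Il2ra, Ikzf2, Ikzf4 and Izumo1r, in CPM, in Foxp3-positive T cells of 3 depth bands, for WT and Siah2-/-, with exact 95% counting intervals. Every line is lowest in barcodes with at least 8000 UMIs, where Izumo1r was at 190 and 145 CPM.

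Barcodes with at least 2 CD3 UMIs and a Csf1r UMI, 576 in WT and 1012 in Siah2-/-, can hold a T cell together with a macrophage, a cell with both kinds of RNA or counts from free RNA, which cannot be told apart here, and no doublet caller was run. Their 3 CD3 genes summed to 1270 and 1180 CPM, against 1204 and 1399 CPM in free RNA alone, and their 5 macrophage markers to 13213 and 12528 CPM, against 7589 and 8549 CPM. These free RNA levels are those of pure free RNA, estimated at 5.40% and 8.31% of the UMIs of T-gated barcodes. Its share of the UMIs of this class was not estimated. Foxp3 was counted in 18.6% and 8.40% of the barcodes of this class, at medians of 14040 and 12749.5 UMIs. Thinned to 2000 UMIs, the shares were 4.69% and 3.75%, with a log2 ratio of -0.32 (-1.07 to 0.45). Per CD3 UMI, 88.8% of 12201 genes in WT and 92.1% of 12719 in Siah2-/- were higher beyond counting error than in T cells, with median log2 ratios of 1.29 and 1.49. Of the 6 genes that reached 20 UMIs 5 were higher in each library, which does not set them apart from all genes. Per 1000 CD3 UMIs they had 20.3 Foxp3 UMIs in WT against 15.3 in T cells, a log2 ratio of 0.41 (0.20 to 0.62), and 12.2 against 8.37 in Siah2-/-, 0.55 (0.32 to 0.77). Il2ra gave 0.50 and 0.58 and Ikzf4 0.59 and 0.79. Ikzf2 gave 0.05 (-0.04 to 0.15) and 0.16 (0.07 to 0.24), and Izumo1r 0.20 (0.03 to 0.38) and 0.07 (-0.12 to 0.25). Nrp1, which macrophages also express, was 4.72-fold higher in WT and 4.14-fold higher in Siah2-/-. In WT, with barcodes thinned to 2000 UMIs before gating, the ratios were -0.72 for Foxp3, -0.25 for Il2ra and -0.91 for Ikzf4, all 3 within counting error, and -1.76 (-2.98 to -0.78) for Izumo1r, and the cause of the change in direction was not tested.

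The partners of these genes were read from lists chosen with earlier results of these data known, as counts of genes whose interval left out 0. Of all 8492 genes 8.51% were higher and 8.77% lower by that measure in Siah2-/- than in WT Foxp3-positive T cells. In the interleukin 2 receptor and signalling list, 2 of 11 genes were higher, 1 lower and 8 within counting error between Siah2-/- and WT Foxp3-positive T cells, with a median log2 ratio of 0.12 against -0.02 over all genes. Il2rb, the beta chain, gave 0.17 (0.01 to 0.32), the common chain Il2rg 0.06 (-0.09 to 0.22), the survival gene Bcl2 0.53 (0.08 to 0.98) and the signalling inhibitor Socs2 -0.29 (-0.55 to -0.03). In the Ikaros and co-repressor list 1 of 6 measured genes was beyond counting error, the histone deacetylase Hdac1 at -0.27. Ikzf3, encoding Aiolos, gave 0.10 (-0.20 to 0.40). Of 14 measured Foxp3 partners and regulators 2 were higher, the chromatin organizer Satb1 by 0.57 (0.28 to 0.87) and the transcription factor Gata3 by 0.44 (0.13 to 0.75), and Runx3 gave 0.24 (-0.05 to 0.52).

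Of 24 Treg effector and costimulatory genes 7 were higher and 9 lower in Siah2-/-, with a median of 0.01. Il10, a suppressive cytokine, stood at 133 CPM in WT and 273 CPM in Siah2-/-, a log2 ratio of 1.04 (0.81 to 1.27). Areg, the tissue repair factor amphiregulin, stood at 67.6 and 160 CPM, 1.24 (0.93 to 1.55). The costimulatory receptor Tnfrsf4 gave -0.10, the protease Gzmb 0.39 and the transcription factor Irf4, with 38 and 13 UMIs, -1.19 (-2.22 to -0.25). Of 4 measured Nrp1 partners Sema4a gave 0.70 (0.15 to 1.25) and Tgfbr1 -0.80 (-1.47 to -0.16), and Tgfbr2 was within counting error. The tetraspanin Cd9, the only measured gene of the folate receptor and Gpr83 list, gave 1.37 (0.92 to 1.83).

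Marker genes of other cells also differed between these Foxp3-positive classes. The 5 macrophage markers summed to 468 CPM in WT and 752 CPM in Siah2-/-, with Csf1r at 0 by the gate, against 7589 and 8549 CPM in free RNA. The 3 NK markers summed to 37.3 and 125 CPM, with all 3 counted in both libraries, and the 4 fibroblast markers to 20.2 and 125 CPM, with all 4 counted in both. The 3 neutrophil markers summed to 2.02 CPM in WT, with Retnlg at 0, and 25.2 CPM in Siah2-/-. The 3 tumor cell markers summed to 3.03 and 19.4 CPM, with Pmel at 0 in WT and Mitf at 0 in Siah2-/-. Lower in Siah2-/- were the 4 B cell markers, at 19.7 and 14.2 CPM, and the 2 mast cell markers, at 0.505 and 0 CPM. The part of all these markers in the ratios above was not tested.

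The same lists were read between Foxp3-positive and Foxp3-negative CD4-gated cells. Of 23 measured Treg effector genes 19 were higher in WT and 17 in Siah2-/-, with median log2 ratios of 1.49 and 1.36 against 0.03 and 0.01 over all genes. Of all genes 11.9% were higher by that measure in WT and 12.5% in Siah2-/-. Il10 gave 0.87 and 1.95, Gzmb 2.05 and 3.03 and Areg 1.62 and 2.36. In the interleukin 2 list Socs2 was higher, by 1.24 and 1.87, and Bcl2 lower, by -2.47 (-3.58 to -1.52) and -1.99 (-2.92 to -1.20). Ikzf3 was higher by 1.25 and 1.78. Sema4a, a ligand of the semaphorin family, was lower by -3.80 (-5.45 to -2.53) and -3.62 (-5.25 to -2.38), as Nrp1 was, with 5 UMIs in the positive cells of each library.

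Over 23 class and library points, the genes whose log2 level followed each gene most closely were named among 13164 genes, as a description. Points of a library share its depth, some classes share barcodes, and Foxp3 itself defines some of the classes. Il2ra was closest to Tnfrsf4 (Pearson r 0.975) and then to Ikzf4 and Izumo1r (0.938). Ikzf2 was closest to Izumo1r (0.947), Bmp7 (0.937) and Dnajb13 (0.934), and Ikzf4 to Il2ra, Arl5a (0.926) and Tnfrsf4 (0.910). Izumo1r followed Sdcbp2 (0.963), Cdipt (0.958) and Cd5 (0.957), and Foxp3 followed Rln3 (0.935), Lrrc32 (0.923) and Ltf (0.918). Nrp1 followed Tspan31 (0.899), Ufsp2 (0.809) and Rbpj (0.809), with r of -0.401 to Foxp3. Gpr83, on its few counts, was closest to 2210417A02Rik (0.913), Gm28874 (0.875) and Car12 (0.871).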

How the data were processed

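Tumor cells from 1 WT and 1 Siah2-/- library were measured on the 10x Genomics 3′ v2 platform. The authors demultiplexed with bcl2fastq and counted with Cell Ranger on mm10, of unstated versions, and deposited unfiltered matrices of UMI counts, which were used here. Their deposited table of raw counts served to list the cells they kept, and their normalized table was not used. Samples of other series took up 0 columns. Gates, thinning, sums, exact Poisson intervals of sums, exact Clopper-Pearson intervals of shares and exact conditional binomial intervals of ratios were computed with Python 3.11.15, numpy 2.4.6, pandas 2.3.3 and scipy 1.17.1 and tested on simulated data. PCR and free RNA are not covered by these intervals. The authors' tests over cells were not repeated, since cells are not replicates. The 7 genes and the lists were chosen with earlier results of these data known. The text named the 7 genes in every class, the 3 genes of highest Pearson r of log2(CPM + 10) to each, with at least 50 UMIs, and of each list the 2 genes with most UMIs and up to 3 with the largest ratio between libraries whose interval left out 0, among genes with at least 20 UMIs. Genes singled out beyond that rule are said to be chosen after their values were seen. Doublets were left in.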

Additional observations from a re-analysis of the deposited data

Results flagged for a closer look

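Some genes differed between the libraries in opposite directions in different classes, and the difference between the classes was not tested. Il2ra was higher in Siah2-/- among CD8-gated Foxp3-negative cells, at a log2 ratio of 0.26, and lower among cells with both Cd4 and Cd8, at -1.37, a class with Foxp3 in 45.0% of barcodes in WT and 16.0% in Siah2-/-. Ikzf2 was higher in CD8-gated Foxp3-negative cells, at 0.25, and lower in CD4-gated Foxp3-negative cells, at -1.51. Nrp1 was higher in cells with both coreceptors, at 0.83 on 95 and 17 UMIs, and lower in NK cells, at -1.97. Barcodes with 1000 to 1999 UMIs, which entered no comparison, held Foxp3 above the free RNA level, at 149 CPM over 493 barcodes in WT against 22.3 CPM in free RNA, and at 36.3 CPM over 426 barcodes in Siah2-/- against 14.4 CPM.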

How the results depend on the processing

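No paired analysis was possible because each genotype has 1 library, and no library could be left out. Depth limits Gpr83, Ikzf4 and Nrp1 in Foxp3-positive cells, and the depth of the barcodes moves with the Foxp3 share. Of 61 summary values under other settings 54 stayed within the 95% counting interval of the main value or, for counts of genes, within 1.5-fold of it, as did 231 of 301 values of single genes. The log2 ratio of the Foxp3-positive share went from -0.98 to -0.70 at 4000 UMIs and stayed below 0 elsewhere. The number of genes beyond counting error between libraries in Foxp3-positive cells, 1 in the main setting, was 0 at 4000 UMIs, 2 with Csf1r allowed in T cells and 5 when all cells of the Treg-associated gate took the place of Foxp3-positive cells, Foxp3 itself not counted. In the main setting 17.3% of all genes were beyond counting error there. Shares of all genes were not computed under other settings, here or for the CD3 ratios below. The number higher beyond counting error per CD3 UMI, 5 of 6 with at least 20 UMIs in each library where 88.8% and 92.1% of all genes were, fell to 1 in WT and 2 in Siah2-/- when barcodes were thinned before gating, and to 3 in WT without barcodes holding Ncr1 or Klrb1c, a setting chosen after seeing the data. Directions reversed for Ikzf2 between libraries, at 0.094 in the authors' cells and 0.022 with 2 Foxp3 UMIs, and per CD3 UMI in WT after thinning for Foxp3 (-0.72), Il2ra (-0.25), Ikzf4 (-0.91) and Izumo1r (-1.76). The cause was not tested.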
